A study of Mus musculus with 10 samples.

Results

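The 10 genes described here are the core circadian clock genes Per1, Per2, Per3, Cry1, Cry2, Arntl, Clock, Npas2, Nr1d1 and Nr1d2, taken by gene symbol from a deposited count table of 25050 genes. All 10 had a single row each, and all 10 passed the filter on low counts, as did 14526 genes in all. The libraries came from frozen whole brains of Abcc5 knockout mice (Abcc5-/-, 5 libraries) and wildtype mice (Abcc5+/+, 5 libraries), with FVB/NJ as the labelled strain background of every animal. The product of Abcc5 is a membrane transporter that exports organic anions, and the study set brains lacking it against wildtype brains. Animals were killed with carbon dioxide, and polyadenylated RNA was sequenced. The time of day of killing, the light schedule, the age and sex of the mice and the way the allele was made are not given in the sources used here. Nothing in the labels says whether the mice were littermates.

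The circadian clock of mammals is a transcription loop that runs in most cells with a period of about a day. CLOCK, or its relative NPAS2, pairs with the product of Arntl, also called BMAL1, and binds E-box elements in front of the Per, Cry and Nr1d genes. PER and CRY proteins then repress that pair, while NR1D1 and NR1D2, also called REV-ERBs, repress Arntl, Npas2 and, more weakly, Clock through ROR elements (ROREs). Transcripts of the E-box arm and of the RORE arm therefore peak at opposed times of day. Here the E-box arm is Per1, Per2, Per3, Nr1d1 and Nr1d2, and the RORE arm is Arntl, Clock and Npas2. Cry1 and Cry2 are kept apart, since Cry1 answers to both kinds of element and Cry2 cycles weakly. Per1 can also be switched on within minutes by light or neuronal activity through CREB, a transcription factor that binds cyclic AMP response elements (CREs).

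The promoter sequences below are those of 4 clock genes whose windows held a clock-related motif: an E-box for Per1, a RORE core for Arntl, D-boxes but neither kind of E-box for Per3, and both kinds of E-box for Cry1, which is in neither arm. RefSeq promoter windows (GRCm38.p6), each running from 250 bases before a transcript start to 50 bases after it, were matched for 9 of the 10 genes, all but Per2, and gave 13 windows in all. Capitals mark motifs found by searching both strands for the E-box CACGTG, the E-prime box CACGTT, the CRE TGACGTCA, the RORE core TAGGTCA and the D-box TTATGTAA or TTACGTAA. No 2 of the matches overlapped. For Per1, Per3 and Cry1 the window is printed up to 30 bases past the start, and for Arntl the 30 bases around its RORE core are printed. The Per1 window lies at chr11:69098699-69098978 on the plus strand, the Per3 window at chr4:151044636-151044915 on the minus strand, the Cry1 window at chr10:85185025-85185304 on the minus strand, and the Arntl stretch at chr7:113207530-113207559 on the plus strand.
Per1 (E-box): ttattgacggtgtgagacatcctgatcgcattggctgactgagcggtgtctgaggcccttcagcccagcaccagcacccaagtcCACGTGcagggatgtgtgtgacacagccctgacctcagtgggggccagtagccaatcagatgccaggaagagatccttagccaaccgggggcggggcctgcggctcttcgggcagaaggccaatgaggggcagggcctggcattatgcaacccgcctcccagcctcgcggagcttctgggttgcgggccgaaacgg
Per3 (D-boxes): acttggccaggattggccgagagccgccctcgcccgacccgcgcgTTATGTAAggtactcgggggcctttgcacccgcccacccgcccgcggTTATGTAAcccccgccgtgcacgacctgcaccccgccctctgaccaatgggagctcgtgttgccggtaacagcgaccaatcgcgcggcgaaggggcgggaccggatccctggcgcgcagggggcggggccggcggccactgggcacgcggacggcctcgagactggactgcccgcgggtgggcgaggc
Cry1 (E-prime box, then E-box): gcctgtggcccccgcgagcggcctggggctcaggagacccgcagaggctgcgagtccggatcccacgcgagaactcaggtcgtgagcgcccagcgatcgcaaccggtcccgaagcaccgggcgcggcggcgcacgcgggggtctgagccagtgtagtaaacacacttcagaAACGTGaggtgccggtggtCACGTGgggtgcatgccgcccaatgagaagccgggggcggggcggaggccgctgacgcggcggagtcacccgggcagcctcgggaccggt
Arntl (RORE core): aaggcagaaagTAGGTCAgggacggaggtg

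The Per1 window held an E-box 166 bases before the start, and Cry1 held an E-box 60 bases and an E-prime box 79 bases before it. Nr1d1 and Cry2 each held an E-prime box, 28 and 166 bases before the start. Per3 held D-boxes, which PAR-bZIP factors such as DBP bind, at 205 and 158 bases before its start. The RORE core of Arntl began at base 31 of its transcript. Among all 32851 windows of the table, 7.15% held the E-box, 4.68% the E-prime box, 1.79% the CRE, 2.61% the RORE core and 1.06% a D-box. A match here is a run of letters in a short window and says nothing on binding, and 7 of the 13 windows held none of these motifs. No window of Nr1d2, Clock or Npas2 held any of them, and no window of a clock gene, that of Per1 included, held the CRE.

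Library totals ran from 7731294 to 23588335 counts, and the 10 genes had 153 to 4510 counts per library, so none was near the detection limit. Levels are given as CPM, counts scaled to a common library size with TMM factors. The Abcc5 transcript itself averaged 219 ± 5.95 CPM in knockout and 311 ± 12.6 CPM in wildtype brains (SD, n = 5 each), with every knockout library below every wildtype library. On the first principal component (33.0% of the variance) knockout replicate 3 was far from the other 9 libraries. Its cerebellar marker transcripts (13 of 14 listed genes in the table) summed to 978 CPM, against 2909 to 3246 CPM in the other knockout libraries and 2808 to 3020 CPM in wildtype libraries. Summed neuronal markers ran from 6361 to 7071 CPM in knockout and from 6374 to 6645 CPM in wildtype libraries. Microglial markers were above the wildtype range in every knockout library, at 207 to 248 CPM in knockout against 173 to 191 CPM in wildtype libraries. Of the 7 genes, none of which was at 0, C1qb and C1qc were called higher and none lower, and C1qb lost its call in 8 of the 10 fits with 1 library left out (adjusted p up to 0.109). The part of these markers in the results below was not tested.

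Per1, Per2 and Nr1d2, all of the E-box arm, fell in knockout brains, and no clock gene rose. The test was edgeR's quasi-likelihood test over the whole table, with a gene called at a Benjamini-Hochberg adjusted p under 0.05. Of the 10 genes 3 were called lower and 0 higher, against 0.964% of all tested genes called lower and 0.213% called higher. Without knockout replicate 3 the same 3 genes were called, at adjusted p-values of 0.000206 for Per1, 0.00285 for Per2 and 0.0196 for Nr1d2. The 3 genes called were also those, among the 10, whose knockout libraries all lay below all wildtype libraries, which held for 2.64% of tested genes. The opposite, all knockout libraries above, held for 1.54% of tested genes and for none of the 10. Without a recorded time of killing, a difference in that time between the groups, if there was one, cannot be told apart from genotype in these or the following differences. In these whole-brain samples, fewer cells that express a gene and less of its RNA per cell cannot be told apart.

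**Figure D1:**
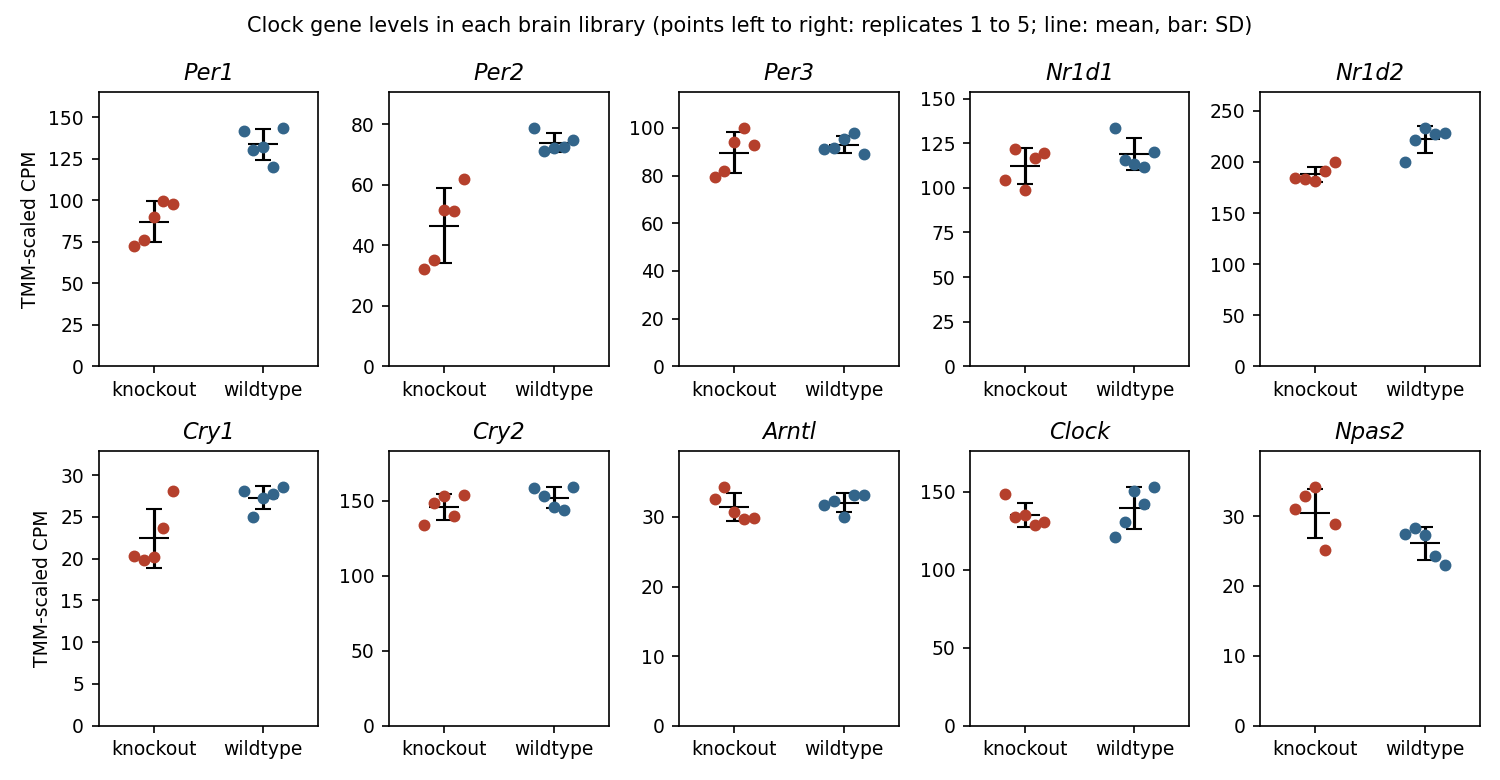
TMM-scaled CPM of each clock gene (linear axis from 0) in the 5 knockout libraries (red, left) and the 5 wildtype libraries (blue, right), with points ordered by replicate number, a line at the mean and a bar of 1 SD. The groups are separate in Per1, Per2 and, by a narrow margin, Nr1d2, and overlap in the other 7 genes.

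Per1 encodes a PERIOD repressor and is the member most quickly induced by light. Its level was 72.6, 76.3, 90.0, 99.5 and 97.7 CPM in knockout replicates 1 to 5, against 141.8, 130.4, 132.2, 120.3 and 143.7 CPM in wildtype replicates 1 to 5. The highest knockout library was thus well below the lowest wildtype library. The means were 87.2 ± 12.2 CPM in knockout and 133.7 ± 9.47 CPM in wildtype brains (SD, n = 5 each). Per1 (ENSMUSG00000020893) fell by 34.8%, with a log2 fold change of -0.62 (SE 0.083, edgeR adjusted p 0.00128). It stayed under the threshold when any single library was left out, at adjusted p-values of 0.000206 to 0.00646. Among the 3 libraries of more than 11479995 counts, knockout replicates 2 and 4 and wildtype replicate 1, the log2 difference of Per1 was -0.70, and among the 7 shallower ones it was -0.61.

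Per2, the PERIOD gene whose loss stops the rhythm of mice kept in darkness, showed the largest fold change of the 10 genes. Its level was 32.3, 35.3, 51.7, 51.4 and 61.8 CPM in knockout replicates 1 to 5. In wildtype replicates 1 to 5 it was 78.8, 71.0, 72.1, 72.4 and 74.9 CPM. Wildtype brains were tightly grouped, while knockout replicates 1 and 2 lay far below the other 3 knockout libraries. The means were 46.5 ± 12.4 CPM in knockout and 73.9 ± 3.12 CPM in wildtype brains (SD, n = 5 each). Per2 (ENSMUSG00000055866) fell by 37.0%, with a log2 fold change of -0.68 (SE 0.13, edgeR adjusted p 0.0179). That call did not hold without knockout replicate 2, wildtype replicate 4 or wildtype replicate 5 (adjusted p 0.0501, 0.0561 and 0.0575) or in the 7 shallower libraries (adjusted p 0.183), at log2 fold changes of -0.58 to -0.69. Split by depth, the log2 difference of Per2 was -0.89 in the deeper set and -0.63 in the shallower set.

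Per3, which encodes the third PERIOD protein and is not needed for the rhythm itself, was not called in either direction. It had 79.3, 82.0, 94.1, 100.009 and 92.8 CPM in knockout replicates 1 to 5, against 88.9 to 97.9 CPM in wildtype libraries. Knockout replicates 1 and 2 were below the wildtype range and knockout replicate 4 was above it. The log2 fold change was -0.051, with a 95% interval of -0.18 to 0.080 (edgeR adjusted p 0.753).

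Of the REV-ERB repressors, which act on the RORE arm, Nr1d2 was called and Nr1d1 was not. Nr1d2 (ENSMUSG00000021775) had 183.9, 183.7, 181.5, 191.0 and 199.7 CPM in knockout replicates 1 to 5, against 199.9, 221.7, 233.4, 227.4 and 228.6 CPM in wildtype replicates 1 to 5. The gap between the groups was narrow, set by knockout replicate 5 and wildtype replicate 1. Nr1d2 fell by 15.4%, with a log2 fold change of -0.24 (SE 0.049, edgeR adjusted p 0.0264). The call was lost in 7 of the 10 fits with 1 library left out, all but those without knockout replicate 3 or 5 or wildtype replicate 1, with adjusted p-values of at most 0.0899. It was also lost with the replicate number as a block (adjusted p 0.0517) and in the 7 shallower libraries (adjusted p 0.052). Among the 3 deeper libraries, 2 knockout and 1 wildtype, the log2 difference of Nr1d2 was -0.094, and among the other 7 it was -0.27.

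Nr1d1 ranged from 98.8 to 121.9 CPM in knockout and from 111.8 to 133.6 CPM in wildtype libraries. The groups overlapped, with knockout replicates 1 and 3 below the wildtype range. The log2 fold change was -0.081, with a 95% interval of -0.22 to 0.058 (edgeR adjusted p 0.598). Its deposited span shares 1075 bases with Thra, a thyroid hormone receptor gene that runs in the opposite direction, and the library kit does not mark strand. Thra averaged 531 CPM in knockout and 477 CPM in wildtype brains (log2 fold change 0.15, edgeR adjusted p 0.193). How the authors counted reads in the shared stretch is not given in the sources used here.

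**Figure D2:**
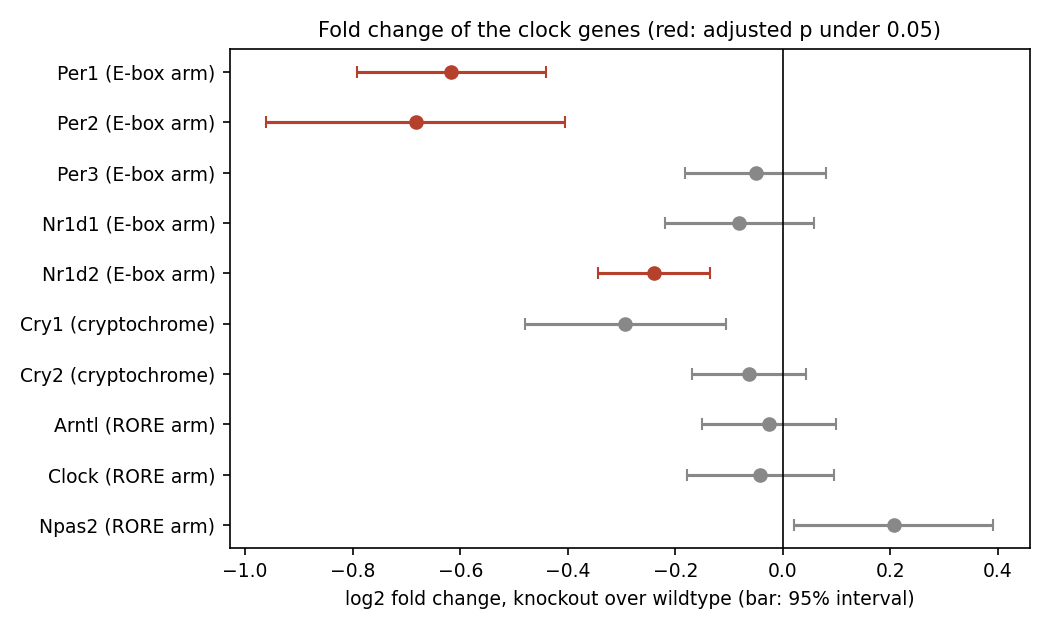
Log2 fold change of each clock gene, knockout over wildtype, with its 95% interval from the edgeR fit (n = 5 libraries a group), where red marks an adjusted p under 0.05. Only Per1, Per2 and Nr1d2 are red, and the intervals of Cry1 (below 0) and Npas2 (above 0) exclude 0 before adjustment over all genes.

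The cryptochromes are the partners of the PER proteins and the stronger repressors of CLOCK and BMAL1. Cry1 had 20.4, 19.8, 20.2, 23.7 and 28.1 CPM in knockout replicates 1 to 5, against 28.1, 24.95, 27.2, 27.7 and 28.6 CPM in wildtype replicates 1 to 5. In 4 knockout libraries it was below every wildtype library, and knockout replicate 5 lay within the wildtype range. It did not pass over all genes (log2 fold change -0.29, SE 0.088, unadjusted p 0.00441, edgeR adjusted p 0.131), and without knockout replicate 5 it did (adjusted p 0.0233). Cry2 averaged 145.8 ± 8.63 CPM in knockout and 152.1 ± 7.17 CPM in wildtype brains (SD, n = 5 each), and the groups overlapped (edgeR adjusted p 0.594).

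The activators of the RORE arm showed no call in either direction. Arntl, the gene of BMAL1, had 32.5, 34.3, 30.7, 29.7 and 29.9 CPM in knockout replicates 1 to 5, against 31.7, 32.4, 29.9, 33.2 and 33.1 CPM in wildtype replicates 1 to 5. The ranges almost coincided, and knockout replicates 1 and 2 were the highest of their group. The log2 fold change was -0.026, with a 95% interval of -0.15 to 0.099 (edgeR adjusted p 0.887). Clock, which encodes the partner of BMAL1, averaged 135.3 ± 7.71 CPM in knockout and 139.5 ± 13.5 CPM in wildtype brains (SD, n = 5 each), with a log2 fold change of -0.042 and a 95% interval of -0.18 to 0.094.

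Npas2, a relative of Clock that can stand in for it and is expressed in the forebrain, was the only member with a positive log2 fold change. It had 31.0, 32.8, 34.2, 25.2 and 28.8 CPM in knockout replicates 1 to 5, against 27.5, 28.4, 27.4, 24.3 and 23.0 CPM in wildtype replicates 1 to 5. All knockout libraries but replicate 4 exceeded the highest wildtype library. Npas2 did not pass over all genes (log2 fold change 0.21, SE 0.087, unadjusted p 0.031, edgeR adjusted p 0.281), nor in any of the 10 fits with 1 library left out.

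In the authors' deposited table, the same 3 genes had an adjusted p under 0.05. The authors' deposited table gives Per1 a log2 fold change of -0.63 (adjusted p 0.000732), Per2 -0.74 (adjusted p 0.00797) and Nr1d2 -0.23 (adjusted p 0.0352). For the other 7 genes the adjusted p in the authors' deposited table ran from 0.158 for Cry1 to 0.943 for Arntl.

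Set side by side, 3 genes of the E-box arm were called lower, while no gene of the RORE arm was called in either direction. The median log2 fold change was -0.24 over the 5 genes of the E-box arm, of which 5 were below 0, 3 were called lower and none higher. It was -0.026 over the 3 genes of the RORE arm, of which 2 were below 0 and none was called, and 0.0042 over all tested genes, of which 48.4% were below 0. The difference between the arm medians was -0.21, and it was -0.38 with means in place of medians and -0.13 with Cry2 counted in the E-box arm and Cry1 in the RORE arm. With 1 library left out the difference between the medians ran from -0.25 to -0.19. No test was applied to the difference between the arms.

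Library by library, the mean log2 CPM of the E-box arm was 6.35, 6.44, 6.58, 6.68 and 6.73 in knockout replicates 1 to 5, against 6.93, 6.87, 6.90, 6.87 and 6.92 in wildtype replicates 1 to 5. The wildtype libraries lay within 0.1 of each other and the knockout libraries were spread below them. Taken singly, Per3 and Nr1d1 of this arm overlapped between the groups. The mean log2 CPM of the RORE arm was 5.74, 5.74, 5.71, 5.52 and 5.60 in knockout replicates 1 to 5, against 5.57 to 5.64 in wildtype libraries. Knockout replicates 1, 2 and 3, with the lowest E-box means, were above the wildtype range in the RORE arm, and knockout replicate 4 was below it. In each of knockout replicates 1, 2 and 3 Npas2 was above its wildtype range and Clock was within its own. Arntl was above its wildtype range only in knockout replicate 2. Knockout replicate 3 is also the library with low cerebellar markers, whose part in its arm means was not tested. The E-box mean minus the RORE mean was 0.895 ± 0.246 in knockout and 1.29 ± 0.052 in wildtype libraries (SD, n = 5 each), and every knockout value was under every wildtype value.

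**Figure D3:**
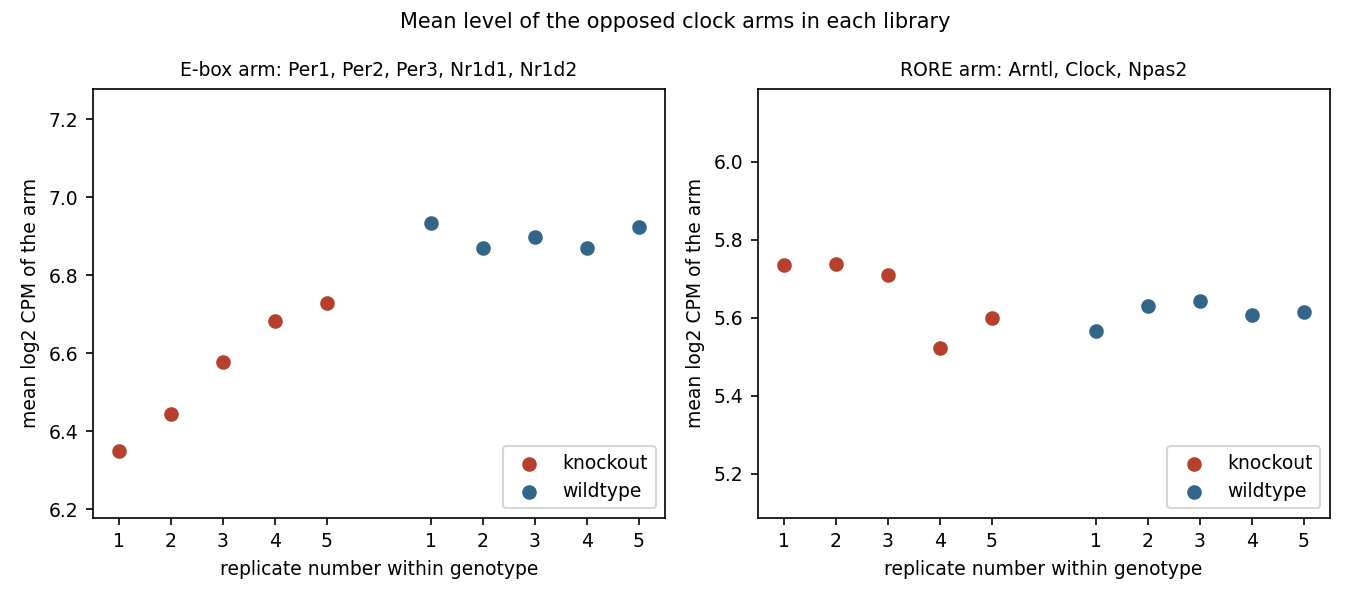
Mean log2 CPM of the E-box arm (left panel) and the RORE arm (right panel) in each knockout library (red) and each wildtype library (blue), by replicate number; both axes span the same range of log2 units. The 5 knockout libraries sit from 6.35 to 6.73 in the E-box arm, all below the wildtype libraries at 6.87 to 6.93, while in the RORE arm they sit from 5.52 to 5.74, on both sides of the wildtype range.

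Knockout brains also differed more among themselves than wildtype brains in most clock genes. The SD of log2 CPM was 0.40 in knockout and 0.060 in wildtype libraries for Per2, and 0.21 in knockout and 0.10 in wildtype libraries for Per1. It was larger in knockout for 8 of the 10 genes, all but Clock and Nr1d2, and for 59.9% of all tested genes. Without knockout replicate 3 it was larger in knockout for 7 of the 10 genes and for 48.2% of all tested genes. No test was applied to these spreads.

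Covariation was described pair by pair over both genotypes pooled, after removal of each genotype's mean, and no pair passed after adjustment. Deviations from the group mean of log2 CPM were correlated over the 10 libraries for all 45 pairs of the 10 genes, with exact permutation of the libraries within each genotype (14400 arrangements, two-sided). Per1 and Per2 had a Pearson r of 0.89 and a Spearman rho of 0.85 (exact permutation p 0.00674 and 0.0209, adjusted over the 45 pairs 0.303 and 0.470, n = 10). Their r was 0.72 without knockout replicates 1 and 2, the libraries farthest from the median in Per1. Per2 and Arntl had an r of -0.71 and a rho of -0.64 (exact permutation p 0.0847 and 0.118, adjusted 0.476 and 0.521). Their r was -0.73 without knockout replicates 1 and 5, the libraries farthest from the median in Per2. Only the first gene of each pair set which libraries were left out. The r values without those libraries kept the genotype means of all 10 libraries, so an offset between the genotypes can enter them. The r of Per1 and Per2 was 0.95 in the 5 knockout libraries and 0.69 in the 5 wildtype libraries. By genotype, the r of Per2 and Arntl was -0.87 in the knockout libraries and 0.036 in the wildtype libraries, whose Per2 levels varied little. Between the arms 13 of 15 pairs had a negative pooled r (median -0.41), and within the E-box arm 8 of 10 pairs had a positive pooled r (median 0.30). Taken by genotype, 14 of the 15 pairs between the arms were negative in knockout and 10 in wildtype libraries, and 10 of the 10 pairs within the E-box arm were positive in knockout and 4 in wildtype libraries. With 5 libraries a genotype these are descriptions with no test, and the difference between the genotypes was not tested. All pairs share the same 10 libraries and so are not independent of each other.

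**Figure D4:**
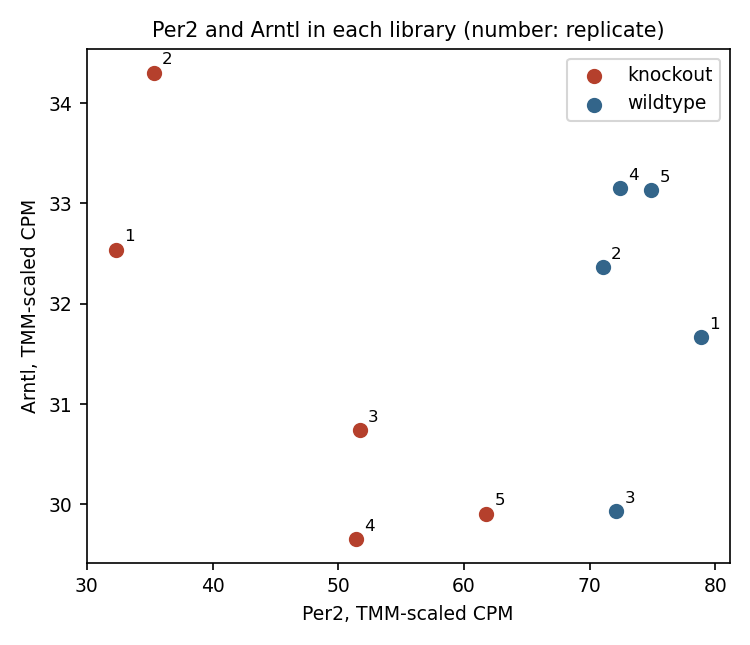
Arntl (vertical axis) against Per2 (horizontal axis), both in TMM-scaled CPM, in the 5 knockout libraries (red) and 5 wildtype libraries (blue), numbered by replicate; neither axis starts at 0. Knockout replicates 1 and 2 have the lowest Per2 of all libraries (32.3 and 35.3 CPM) with Arntl at 32.5 and 34.3 CPM, and the wildtype libraries sit together at 71.0 to 78.8 CPM of Per2.

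Levels of different genes were compared per kilobase of exon (GENCODE M21 gene models, which may differ from those the authors counted on). In knockout brains the order was Nr1d1 at 36.5 ± 3.28, Nr1d2 at 34.8 ± 1.38, Cry2 at 23.1 ± 1.36 and Per1 at 15.5 ± 2.17 CPM per kilobase (SD, n = 5). Below them came Clock at 9.86, Per3 at 9.33, Per2 at 7.94, Cry1 at 6.71, Npas2 at 6.35 and Arntl at 4.18 CPM per kilobase. By this measure the REV-ERB genes were the most abundant members and Arntl the least, by a factor of 8.73. The exon length counts every annotated exon of a gene, whether or not it is used in brain. The overlap of Nr1d1 with Thra was not corrected for. Nr1d1 and Nr1d2 overlapped in range, as did each neighbouring pair from Clock down to Npas2, so their order is not resolved. In wildtype brains Nr1d2 stood at 41.1 ± 2.43 and Nr1d1 at 38.6 ± 2.88 CPM per kilobase, Per1 at 23.7 ± 1.68 beside Cry2 at 24.1 ± 1.13, and Per2 at 12.6 ± 0.532 (SD, n = 5).

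Genes around the loop were read from 5 lists, which held 51 tested genes. Of these, 5 were called lower and none higher by edgeR, and 3 of the lists held no called gene. The calls fell in the lists of PAR-bZIP and DEC output genes and of the CREB pathway, while the proteins that modify or degrade PER and CRY gave none. For comparison, 0.964% of all tested genes were called lower, as given above. The lists were chosen with earlier results of these data known, so a count here is a description.

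The ROR receptors, which activate at the same elements that the REV-ERBs repress, showed no call among 3 genes. Rora averaged 199 ± 28.1 CPM in knockout and 204 ± 19.96 CPM in wildtype brains (SD, n = 5 each), with a log2 fold change of -0.032. Knockout replicate 3, low in cerebellar markers, had the lowest Rora of all libraries at 150 CPM. Without it the log2 fold change of Rora was 0.055 (edgeR adjusted p 0.670). Rorb had a log2 fold change of 0.018. Among 15 kinases, ubiquitin ligases and proteases that act on PER and CRY, none was called and the log2 fold changes ran from -0.10 to 0.12. None of the 15 had an unadjusted p under 0.05 by edgeR, against 2145 of all 14526 tested genes. The smallest p-values there were those of Gsk3a, a kinase (log2 fold change 0.091, edgeR adjusted p 0.354), and Fbxw7, a ubiquitin ligase subunit (0.12, adjusted p 0.376). Csnk1a1, a casein kinase, and Gsk3b had the highest CPM of the list, not scaled to length, with log2 fold changes of -0.056 and -0.015.

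Among 18 cofactors and further clock proteins none was called, and the median log2 fold change was -0.019. Of the 18, 3 had an unadjusted p under 0.05 by edgeR, against 2145 of all 14526 tested genes. Sirt1, a deacetylase that acts on PER2 and BMAL1, averaged 22.3 ± 2.72 CPM in knockout and 27.3 ± 2.53 CPM in wildtype brains (SD, n = 5 each), at a log2 fold change of -0.28 (adjusted p 0.131 by edgeR, and 0.046 without knockout replicate 5). For Ep300, a histone acetyltransferase, the log2 fold change was -0.13 (adjusted p 0.157 by edgeR). Ncor1, a corepressor through which the REV-ERBs act, had a log2 fold change of -0.033.

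Of the 6 PAR-bZIP and DEC genes, Nfil3 and Bhlhe40 fell and the other 4 were not called. Nfil3 encodes a repressor of D-boxes and is itself driven through ROREs. It averaged 8.03 ± 1.19 CPM in knockout and 11.6 ± 0.602 CPM in wildtype brains (SD, n = 5 each), without overlap. The log2 fold change was -0.52 (adjusted p 0.0138 by edgeR), and the call was lost without knockout replicate 2 (adjusted p 0.0549) and in the 7 shallower libraries (adjusted p 0.144). Bhlhe40, an E-box repressor also called DEC1, averaged 93.6 ± 12.6 CPM in knockout and 119 ± 5.96 CPM in wildtype brains (SD, n = 5 each), at a log2 fold change of -0.36 (adjusted p 0.0303 by edgeR). That call did not hold in 7 of the 10 fits with 1 library left out, all but those without knockout replicate 3 or 5 or wildtype replicate 1 (adjusted p up to 0.095), nor in the 7 shallower libraries (adjusted p 0.242). Tef and Hlf, which encode D-box activators, had log2 fold changes of -0.071 and -0.13.

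Dbp, a strongly rhythmic E-box target named here after its values were seen, was not called. It had 50.3, 53.0, 69.7, 62.6 and 63.4 CPM in knockout replicates 1 to 5, against 55.1, 64.8, 56.8, 56.4 and 62.5 CPM in wildtype replicates 1 to 5. Knockout replicates 1 and 2, where the Per genes were lowest, were also the only libraries below the wildtype range of Dbp, while knockout replicate 3 was above that range and knockout replicates 4 and 5 were within it. The log2 fold change was 0.013 (edgeR adjusted p 0.968).

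Of 9 genes on the CREB side of the input to Per1, Sik1, Sik2 and Creb1 fell and none rose. Sik1, a kinase that CREB induces and that shuts its coactivators off again, averaged 13.4 ± 2.20 CPM in knockout and 23.4 ± 1.57 CPM in wildtype brains (SD, n = 5 each), at a log2 fold change of -0.82 (adjusted p 0.000248 by edgeR), and passed with any library left out. Sik2, a related kinase, averaged 32.0 ± 2.74 CPM in knockout and 39.9 ± 2.33 CPM in wildtype brains (SD, n = 5 each), at a log2 fold change of -0.33 (adjusted p 0.0258 by edgeR). Creb1, the gene of CREB, averaged 71.7 ± 4.92 CPM in knockout and 87.8 ± 7.20 CPM in wildtype brains (SD, n = 5 each), at a log2 fold change of -0.29 (adjusted p 0.0303 by edgeR). Sik2 lost its call without knockout replicate 1, 2 or 4 or wildtype replicate 2, 3 or 5 (adjusted p up to 0.0811), and Creb1 without knockout replicate 1, 2 or 4 or wildtype replicate 3, 4 or 5 (adjusted p up to 0.0959). Both lost it in the 7 shallower libraries (adjusted p 0.248 and 0.19). With the replicate number as a block Creb1 also missed the threshold (adjusted p 0.0644). Crtc1, a coactivator of CREB, and Sik3 had the highest CPM of the 9, not scaled to length, with log2 fold changes of 0.099 and -0.053.

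**Figure D5:**
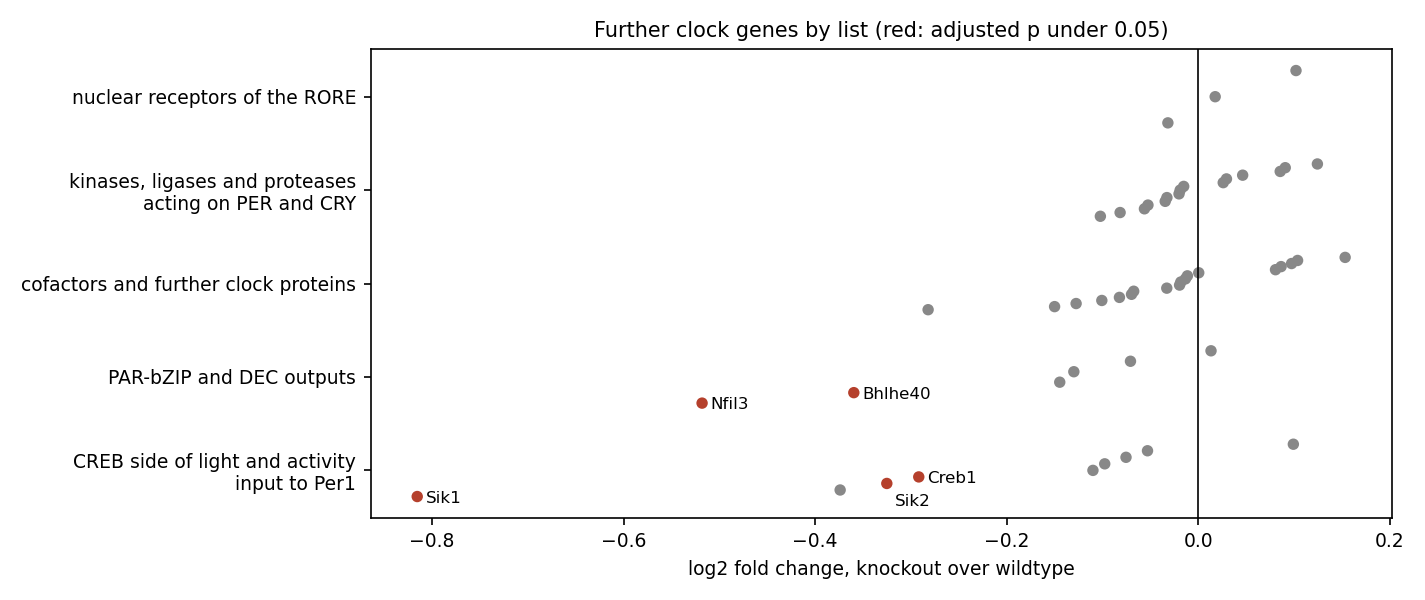
Log2 fold change, knockout over wildtype, of 51 further clock genes in 5 lists, 1 point a gene, with red and a name for an adjusted p under 0.05 by edgeR. The 5 named genes lie between -0.82 and -0.29, and the grey genes of the first 3 lists lie between -0.28 and 0.15. A grey gene of the CREB list lies at -0.37 (adjusted p 0.101 by edgeR), lower than the named Bhlhe40, Sik2 and Creb1.

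The suprachiasmatic nucleus of the hypothalamus, the seat of the master clock, makes up little of a whole brain, and its markers were at low levels. The 8 listed genes, of which 5 passed the filter on low counts, summed to 63.2 to 70.6 CPM in knockout and 63.9 to 69.2 CPM in wildtype libraries. Of these 5, only Avp was called, which encodes vasopressin and is also made in other hypothalamic nuclei. It rose to 8.65 CPM in knockout, against 5.64 CPM in wildtype brains (log2 fold change 0.56, edgeR adjusted p 0.0233), and lost its call without knockout replicate 1 or 4 or wildtype replicate 2, 3, 4 or 5 (adjusted p up to 0.0799).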

How the data were processed

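RNA of 10 whole mouse brains, 5 Abcc5 knockout and 5 wildtype, had been sequenced as polyadenylated RNA. The submitters' processing notes name TopHat2 2.0.6, HTSeq, edgeR and limma, without roles, settings or genome build. The authors deposited whole-number counts per Ensembl gene and library. The deposited table also holds the authors' log2 fold change and adjusted p-value per gene, in which some cells have lost decimal points, and those of the 10 clock genes were intact. A further 10 columns of per-library values, in which decimal points had been lost, were not used. Clock genes were taken by symbol.

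The deposited counts entered edgeR 4.0.16 (R 4.3.3) with filterByExpr (minimum count 10, minimum total 15), TMM (factors 0.982 to 1.01), and a quasi-likelihood test of genotype with Benjamini-Hochberg adjustment over the 14526 tested genes. The method was tested on simulated data. The SE comes from the F statistic, and log2 CPM uses a prior count of 2. Limma-voom (limma 3.58.1) and DESeq2 1.42.0 were alternatives, with other scalings, filters, the replicate number as a block, each library left out, and the 7 libraries of at most 11479995 counts. P-values of the genotype test set the difference between genotypes against the spread between libraries, labelled as separate brains.

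The clock genes, lists and arms were chosen with earlier results of these data known. Beside the 10 genes, the text names called genes of the lists and, per list, the 2 with the smallest p and the 2 of highest CPM, and for Per1, Nr1d1 and Arntl the 3 genes of most similar pattern. All listed symbols were matched by symbol or Ensembl ID except Cbln1 and Asmt, which had no single row. List members were counted, with no set test, and some that this rule would name are not reported here.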

Additional observations from a re-analysis of the deposited data

How the results depend on the processing

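The count of genes called was 171 over all genes. It was 90 with the replicate number as a block (replicate block), 31 in the 7 libraries of at most 11479995 counts, 259 by the DESeq2 Wald test, 373 at an adjusted p under 0.1, and 76 to 341 with 1 library left out, the highest without knockout replicate 3. Of the 10 clock genes, 3 were called lower, 1 in the 7 shallower libraries and 1 to 4 with 1 library left out (1 without knockout replicate 2, wildtype replicate 4 or wildtype replicate 5, and 4, Cry1 added, without knockout replicate 5), and none was called higher under the 19 alternatives. Per1 was called in 18 of 18 fits (log2 fold change -0.68 to -0.56), Per2 in 14 (-0.80 to -0.58) and Nr1d2 in 9 (-0.28 to -0.22), and no call changed direction. With the block 2 of the 3 calls passed, Nr1d2 being the exception. Whether the replicate numbers mark pairs was not settled. Deviations of same-numbered libraries correlated at -0.14 to 0.089, and 3 of 10 libraries correlated best with their own number. These correlations over all genes cannot exclude pairs, since differences of single libraries also enter them. For the arms, the difference between the medians stayed negative in all 21 alternatives, from -0.38 to -0.13. The cause of these losses was not tested.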

Other observations

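The genes whose pattern was most like a clock gene were looked for among 11873 genes of at least 5 CPM, by Pearson r of log2 CPM over the 10 libraries after removing each genotype's mean. For Per1 these were Klf2, a zinc finger transcription factor (r 0.96), Rpl22, a ribosomal protein gene (r 0.96), and Lgr5, an R-spondin receptor gene (r 0.95). For Nr1d1 they were Crtc3 (r 0.97), Ndufb10 (r 0.97) and Fyn (r 0.96). For Arntl they were Tesc (r 0.88), Mrps7 (r 0.84) and Tmem218 (r 0.84). These are the highest of many values over 10 libraries and carry no test. None of the 9 was called between knockout and wildtype by edgeR, and the lowest adjusted p was that of Klf2 (log2 fold change -0.62, adjusted p 0.103).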
